A study of Homo sapiens with 8 samples.

Results

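A set of 10 genes, of the 21077 in the table, were followed in Hs578T cells: the glucose transporter genes SLC2A1, SLC2A3, SLC2A6, SLC2A8 and SLC2A10, the hexokinase genes HK1 and HK2, and the regulators of fructose bisphosphate levels PFKFB3, PFKFB4 and TIGAR. They were chosen by symbol, for their place at the entry of glucose into glycolysis, with earlier results of these data known. Hs578T is a long-established human line from a breast carcinoma, estrogen receptor negative and mesenchymal in character. Cells of this 1 line were cultured for 48 hours at 25 mM glucose (high glucose, which models hyperglycemia) or at 5 mM (low glucose), and RNA-Seq was done on 4 libraries per group, 8 in all. No gene was altered and no other agent was named in the labels for either group. The methods of the study describe medium without serum for such experiments, after a period in low glucose that both groups share. Its RNA-Seq methods list other cultured lines and not cultured Hs578T, so these conditions are taken from its general description of culture. An osmotic control with mannitol is described only for some experiments and is not named for these libraries.

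Glucose enters most cells down its gradient through GLUT transporters, the proteins of the SLC2A genes. Hexokinases then add a phosphate that traps the sugar in the cell, and phosphofructokinase commits it to glycolysis. The enzymes of the PFKFB family make and break fructose-2,6-bisphosphate, the strongest known activator of phosphofructokinase, and TIGAR is a phosphatase that lowers this signal and steers glucose toward the pentose phosphate pathway. High transporter and hexokinase expression is a hallmark of many tumors and underlies their detection by labeled glucose.

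Values are the normalized signal, read as CPM, the count of a gene relative to the size of its library, with TMM scaling, which divides each library by a factor meant to make most genes equal. The estimated depth was 10244900 to 11956677 reads per library. Log2 fold changes are the mean log2(CPM + 1) of high minus that of low glucose, a scale that shrinks differences of weakly expressed genes, and adjusted p values are from limma with Benjamini-Hochberg adjustment over the 15570 genes that reached 0.5 CPM in 2 libraries or more. The labels do not say whether libraries came from separate cultures, so the p values cover the spread among these libraries and that spread may be technical. The deposited columns summed to 1017015 to 1036274 in high and 1205567 to 1229021 in low glucose. Rescaling every library to the same total therefore shifted fold changes upward, moved the median of all genes to 0.20 from -0.00031 on the log2 scale and gave 7306 higher and 4337 lower genes in place of 5553 and 5797. All 8 mesenchymal markers of the line were above 1 CPM in every library, with a summed level of 35376 to 36798 CPM in high and 57902 to 61949 CPM in low glucose. EPCAM (epithelium), LYZ (leukocytes) and CDH5 (endothelium) were at 0 in all 8 libraries. The summed level of 10 epithelial and receptor markers was 134 to 155 CPM in high and 300 to 319 CPM in low glucose, mostly KRT18 and KRT8. Of the same markers, GATA3 averaged 20.2 CPM in high and 21.0 CPM in low glucose, and FOXA1 3.26 and 3.51 CPM. The sum of 4 leukocyte markers was 92.9 to 98.2 CPM in high against 180 to 189 CPM in low glucose, nearly all CD68. That of 5 endothelial markers was 7.22 to 8.93 CPM against 3.14 to 4.05 CPM. The part of these shifts in the results on the 10 genes was not tested. In a culture, fewer cells expressing a gene and less RNA of it per cell cannot be told apart.

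Of the 10 genes, 9 passed the filter on low values, and all 9 passed an FDR of 0.05: SLC2A6, SLC2A10, PFKFB3, PFKFB4 and TIGAR were higher and SLC2A1, SLC2A8, HK1 and HK2 were lower in high glucose. Most genes of the table also passed, 72.9% of those tested, 35.7% as higher and 37.2% as lower, so the count alone says little about the 9 genes. Their sizes were larger than those over all genes, but the genes were chosen with earlier results known, so this is a description only. The genes tested also include many weakly expressed ones, whose differences the log2(CPM + 1) scale shrinks. The median absolute log2 fold change of the 9 genes was 0.96, against 0.48 over all genes tested, and 4 of the 9 (SLC2A1, HK2, PFKFB3 and TIGAR) differed at least 2-fold, against 17.1% of all genes tested. High- and low-glucose libraries did not overlap for 7 of the 9 genes, against 66.7% of all genes tested, and overlapped for SLC2A6 and SLC2A8. Each of the 9 genes kept its direction and its call under the 19 other settings tried.

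**Figure D1:**
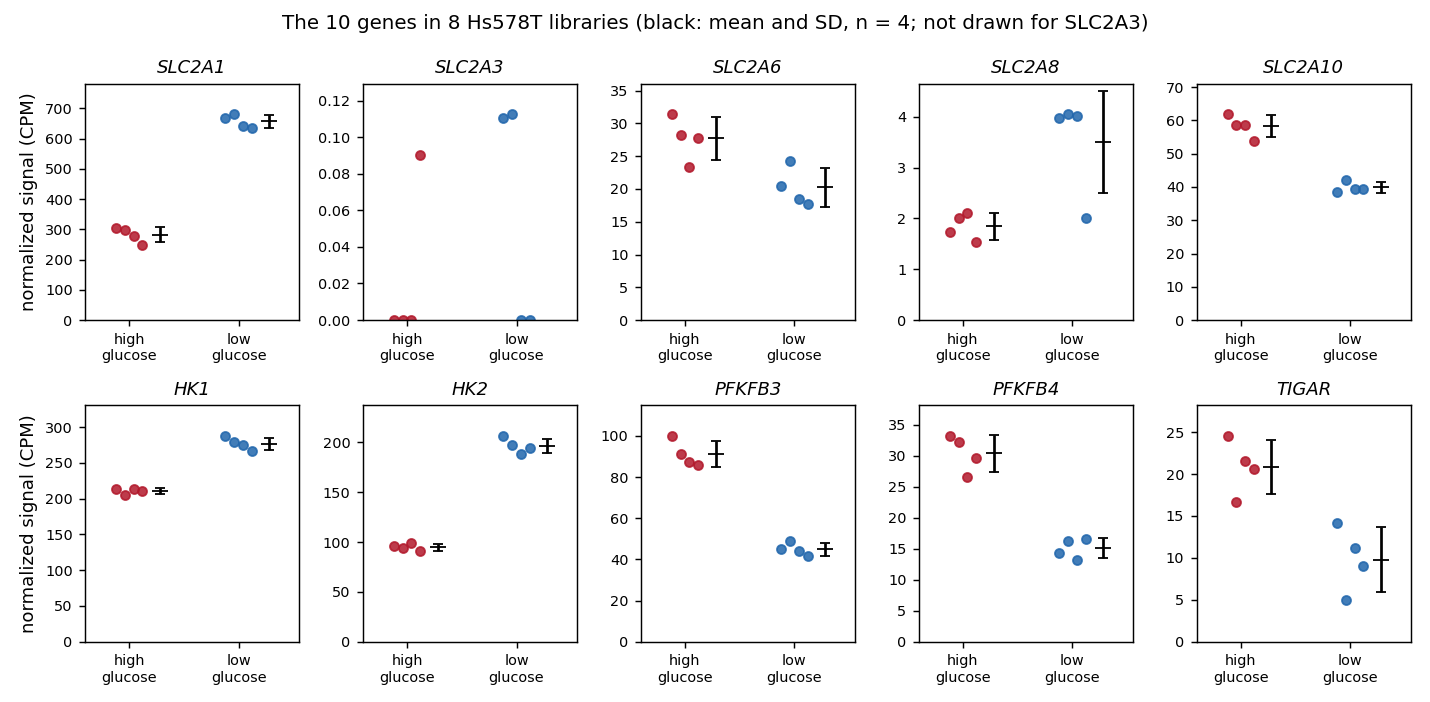
Normalized signal (CPM, each panel with its own axis from 0) of the 10 genes, with 1 point per library, high glucose in red and low glucose in blue, and black marks for the mean with SD of a group. SLC2A1 lay between 249 and 304 CPM in high glucose and between 634 and 680 CPM in low glucose, whereas the groups met for SLC2A6 and SLC2A8 and SLC2A3 was at 0 to 1 read per library.

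The sequences upstream of 2 genes that fell and 2 that rose are shown first, as a view of the regions at which these opposite differences could be followed up. Each is the 250 bases before the RefSeq start that matched the first 25 bases of the MANE Select transcript, on the gene's own strand and in the GRCh38.p14 assembly. Capitals mark every ACGTG or GCGTG on either strand (CACGT and CACGC on the other strand), the core of the site known to bind hypoxia-inducible factors. The windows are SLC2A1, minus strand of chr1:42958869-42959118, HK2, plus strand of chr2:74833877-74834126, PFKFB3, plus strand of chr10:6202682-6202931, and PFKFB4, minus strand of chr3:48556804-48557053.
SLC2A1: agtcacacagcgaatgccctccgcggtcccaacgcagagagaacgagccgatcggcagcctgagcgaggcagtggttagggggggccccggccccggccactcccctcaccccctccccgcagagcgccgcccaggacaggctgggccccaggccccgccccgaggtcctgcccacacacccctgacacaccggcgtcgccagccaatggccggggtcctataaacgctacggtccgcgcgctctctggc
HK2: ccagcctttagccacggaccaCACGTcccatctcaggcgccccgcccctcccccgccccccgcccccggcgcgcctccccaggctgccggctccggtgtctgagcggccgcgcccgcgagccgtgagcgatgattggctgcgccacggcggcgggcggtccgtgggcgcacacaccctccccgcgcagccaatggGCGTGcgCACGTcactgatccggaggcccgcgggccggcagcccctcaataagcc
PFKFB3: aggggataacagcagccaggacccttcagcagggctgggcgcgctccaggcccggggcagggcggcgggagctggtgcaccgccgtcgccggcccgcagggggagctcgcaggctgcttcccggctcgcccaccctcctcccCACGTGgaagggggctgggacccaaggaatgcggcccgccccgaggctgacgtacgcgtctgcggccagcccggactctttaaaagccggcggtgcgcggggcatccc
PFKFB4: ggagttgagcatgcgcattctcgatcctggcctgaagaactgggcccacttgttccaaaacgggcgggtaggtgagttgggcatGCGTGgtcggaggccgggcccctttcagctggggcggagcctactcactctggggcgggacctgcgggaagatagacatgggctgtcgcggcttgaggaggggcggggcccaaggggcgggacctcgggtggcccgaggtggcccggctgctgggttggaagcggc

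The 4 windows differed in what they held. HK2, which fell, had 3 matches, starting 229, 55 and 48 bases before the start, and SLC2A1, which also fell, had none in these 250 bases. PFKFB3, which rose, had 2 overlapping matches 108 and 107 bases before the start, which together form CACGTG, the E-box letters that MYC and the glucose-responsive MLX partners are known to bind. PFKFB4, which rose, had 1 match, 166 bases before the start. Among 35116 windows of 250 bases in the table of RefSeq starts, 43.2% held ACGTG or GCGTG, 7.76% held 3 or more such matches, 6.34% held CACGTG and 42.6% held GGGCGG, the GC box letters. Of the 10 genes, 8 had a window at the MANE Select start. In 6 of these 8 windows ACGTG or GCGTG was found, in all 8 GGGCGG, and in 1 (PFKFB3) CACGTG. The 35116 windows also include other starts of a gene, with 7 windows for HK1, so they are not a like set to these 8. The windows at other RefSeq starts were not the same: a second HK2 window, plus strand of chr2:74834920-74835169, held 6 matches, 4 of them in overlapping pairs that form 2 CACGTG. A match of letters is a description and not evidence of binding.

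Among the transporters, SLC2A1 was the main one in both groups and fell by more than any other of the 9 genes tested on the log2 scale. SLC2A1 encodes GLUT1, which carries basal glucose uptake in most cultured cells, and lies on chromosome 1 from 42925353 to 42958868 (RefSeq, GRCh38.p14). It had 304, 297, 278 and 249 CPM in the 4 high-glucose libraries, against 669, 680, 643 and 634 CPM in low glucose. The groups were far apart, with the highest high-glucose library below the lowest low-glucose library. SLC2A1 averaged 282 ± 24.5 CPM in high and 656 ± 21.3 CPM in low glucose (SD, n = 4 each), 2.33-fold lower in high glucose, with a log2 fold change of -1.22 ± 0.0524 (SE, adjusted p = 1.12e-11). Of all genes tested, 4.88% had a log2 fold change at or below that of SLC2A1. With libraries rescaled to equal totals, its log2 fold change was -0.98.

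The other detected transporters were lower in level, and SLC2A10 and SLC2A6 moved the other way. SLC2A10 encodes GLUT10, an intracellular transporter whose loss causes arterial tortuosity syndrome, and lies on chromosome 20 from 46708320 to 46736347. SLC2A10 had 61.8, 58.5, 58.7 and 53.9 CPM in high glucose, against 38.4, 42.2, 39.3 and 39.5 CPM in low glucose. All high-glucose libraries were above all low-glucose libraries, and its log2 fold change was 0.53 ± 0.0564 (SE, adjusted p = 4.28e-07), or 1.46-fold in the group means. SLC2A6 encodes GLUT6, a transporter of lysosomal membranes, and lies on chromosome 9 from 133471094 to 133479099. SLC2A6 had 31.4, 28.3, 23.4 and 27.8 CPM in high glucose, against 20.5, 24.3, 18.5 and 17.7 CPM in low glucose. Replicate 3 of high glucose lay below replicate 2 of low glucose, so the groups overlapped, and the log2 fold change was 0.44 ± 0.103 (SE, adjusted p = 0.00139). It was 0.67 with libraries rescaled to equal totals.

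SLC2A8 encodes GLUT8, an intracellular transporter, and lies on chromosome 9 from 127397169 to 127407898. SLC2A8 had 1.73, 2.004, 2.10 and 1.53 CPM in high glucose, against 3.98, 4.05, 4.01 and 2.005 CPM in low glucose, from an estimated 17 to 22 reads and 17 to 37 reads per library. The other 3 low-glucose libraries lay close together, and replicate 4 was among the high-glucose values. The log2 fold change was -0.64 ± 0.176 (SE, adjusted p = 0.00425), and -0.82 without low glucose replicate 4. At this low level the size depended on the pseudocount, from -0.31 with 5 CPM to -0.85 with 0.1 CPM added.

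SLC2A3, which encodes GLUT3, the high-affinity transporter of neurons, was at the limit of detection. It lies on chromosome 12 from 7919230 to 7936187. SLC2A3 had 0, 0, 0 and 0.0901 CPM in high glucose, against 0.111, 0.112, 0 and 0 CPM in low glucose, where each value above 0 is 1 read. A count of 0 allows up to 3 reads, which is 0.260 to 0.301 CPM in high and 0.325 to 0.354 CPM in low glucose, for counting error only. Both groups were under that floor, so no fold is given. SLC2A3 shares near-identical sequence with SLC2A14, which was looked for and is not in the table, so reads of either could have been divided or left out.

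The summed signal of the 5 SLC2A genes was 399, 386, 362 and 333 CPM in high glucose, against 732, 750, 705 and 693 CPM in low glucose, a description without a test. The total was 1.95-fold lower in high glucose in the group means, against 2.33-fold for SLC2A1 itself. SLC2A1 made up 76.2, 77.0, 76.7 and 75.0% of this sum in high glucose and 91.4, 90.6, 91.2 and 91.5% in low glucose. These shares do not depend on how libraries are scaled to each other.

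Both hexokinases fell, HK2 more than HK1. HK2 encodes the inducible hexokinase of muscle, fat and many tumors, which binds the mitochondrial outer membrane, and lies on chromosome 2 from 74834127 to 74893359. HK2 had 95.8, 93.8, 98.8 and 90.9 CPM in high glucose, against 206, 197, 189 and 194 CPM in low glucose. The groups were well apart, with the highest high-glucose library below the lowest low-glucose library. HK2 averaged 94.8 ± 3.33 CPM in high and 196 ± 7.32 CPM in low glucose (SD, n = 4 each), 2.07-fold lower in high glucose, with a log2 fold change of -1.04 ± 0.0417 (SE, adjusted p = 5.07e-12). HK1, the widely expressed hexokinase, lies on chromosome 10 from 69270000 to 69401882. HK1 had 214, 205, 214 and 211 CPM in high glucose, against 287, 279, 275 and 266 CPM in low glucose. The groups did not overlap, and the log2 fold change was -0.39 ± 0.0356 (SE, adjusted p = 7.83e-08). It was -0.15 (adjusted p = 0.00139) with libraries rescaled to equal totals.

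The HK2 to HK1 ratio, which does not depend on scaling, was 0.448, 0.458, 0.462 and 0.430 in high glucose, against 0.718, 0.708, 0.687 and 0.728 in low glucose. Every high-glucose library thus held fewer HK2 reads per HK1 read than every low-glucose library. HK2 relative to SLC2A1 differed much less, with a ratio of 0.338 ± 0.0260 in high and 0.299 ± 0.00893 in low glucose (SD, n = 4 each), although the ranges did not overlap.

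Of the 10 genes, the 3 that act on fructose-2,6-bisphosphate all rose, by near 2-fold each. PFKFB2, a family member outside the 10, did not pass in the limma fit (log2 fold change 0.093, adjusted p = 0.271). PFKFB3 encodes the isoform with the highest kinase relative to phosphatase activity, which is induced in many tumors, and lies on chromosome 10 from 6144921 to 6326637. PFKFB3 had 99.8, 91.4, 87.5 and 85.9 CPM in high glucose, against 44.8, 48.9, 43.99 and 41.7 CPM in low glucose. The groups did not overlap. PFKFB3 averaged 91.2 ± 6.22 CPM in high and 44.9 ± 2.99 CPM in low glucose (SD, n = 4 each), with a log2 fold change of 1.01 ± 0.0601 (SE, adjusted p = 5.07e-10), and 8.44% of all genes tested had a log2 fold change at or above it. PFKFB4, a further isoform of the family with kinase and phosphatase activity, lies on chromosome 3 from 48517684 to 48563136. PFKFB4 had 33.2, 32.2, 26.6 and 29.6 CPM in high glucose, against 14.4, 16.3, 13.1 and 16.6 CPM in low glucose. The groups again did not overlap, and the log2 fold change was 0.96 ± 0.0927 (SE, adjusted p = 1.48e-07). The gene UCN2 overlaps the annotated span of PFKFB4 and averaged 5.53 CPM in high and 2.07 CPM in low glucose. Both genes are annotated on the minus strand, so strand cannot tell their reads apart where they overlap, and part of the PFKFB4 reads in high glucose were estimated as fractions.

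TIGAR, whose product has phosphatase but no kinase activity, lies on chromosome 12 from 4321213 to 4360028. TIGAR had 24.5, 16.7, 21.6 and 20.6 CPM in high glucose, against 14.1, 4.97, 11.1 and 8.99 CPM in low glucose. The groups did not overlap, but TIGAR was the most variable of the 9 genes in both, and replicate 2 was the lowest library of each group. TIGAR averaged 20.8 ± 3.23 CPM in high and 9.80 ± 3.85 CPM in low glucose (SD, n = 4 each), with a log2 fold change of 1.08 ± 0.211 (SE, adjusted p = 0.000271). It was 0.82 without low glucose replicate 2. The reads behind TIGAR were estimated as fractions in all 8 libraries, 44.17 in the lowest and 282.76 in the highest, so its values rest in part on how the authors' counting divided reads.

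**Figure D2:**
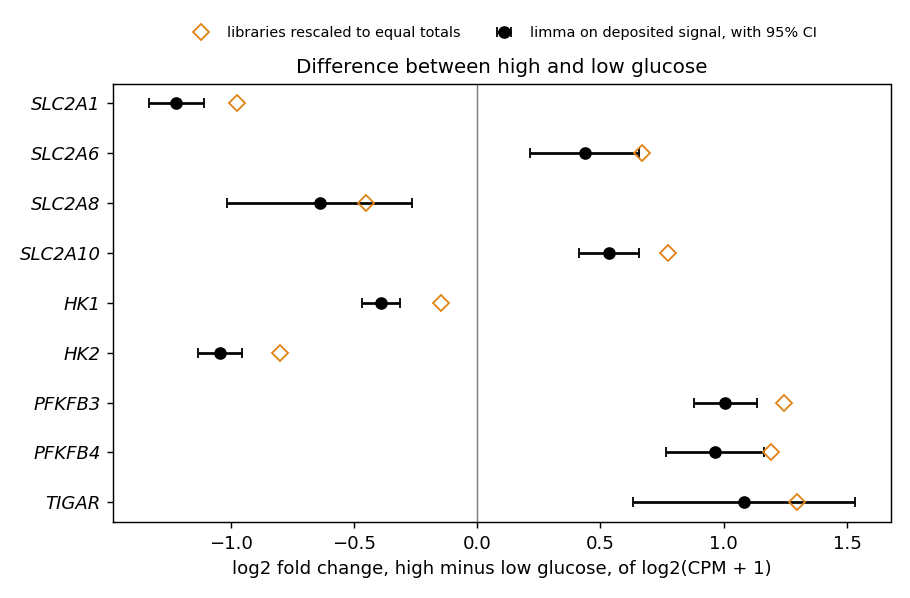
Log2 fold change of log2(CPM + 1), high minus low glucose, of the 9 genes tested (n = 4 per group), as black points with 95% confidence intervals from limma and as orange diamonds after rescaling to equal totals. SLC2A1 at -1.22 and HK2 at -1.04 lay farthest left, PFKFB3, PFKFB4 and TIGAR at 0.96 to 1.08 farthest right, and the diamonds were shifted to the right, with HK1 at -0.15 closest to 0.

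PFKFB4 and PFKFB3 kept a like proportion. The PFKFB4 to PFKFB3 ratio was 0.332, 0.352, 0.304 and 0.345 in high glucose, against 0.321, 0.333, 0.298 and 0.398 in low glucose, and the groups overlapped. The balance between PFKFB3 and the upstream genes was different in each library of the 2 groups. The PFKFB3 to HK2 ratio was 1.04, 0.974, 0.886 and 0.945 in high glucose, against 0.218, 0.248, 0.233 and 0.215 in low glucose, 4.21-fold higher in the group means. The PFKFB3 to SLC2A1 ratio averaged 0.324 ± 0.0160 in high and 0.0683 ± 0.00266 in low glucose (SD, n = 4 each), 4.74-fold higher. These ratios are descriptions, without a test.

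**Figure D3:**
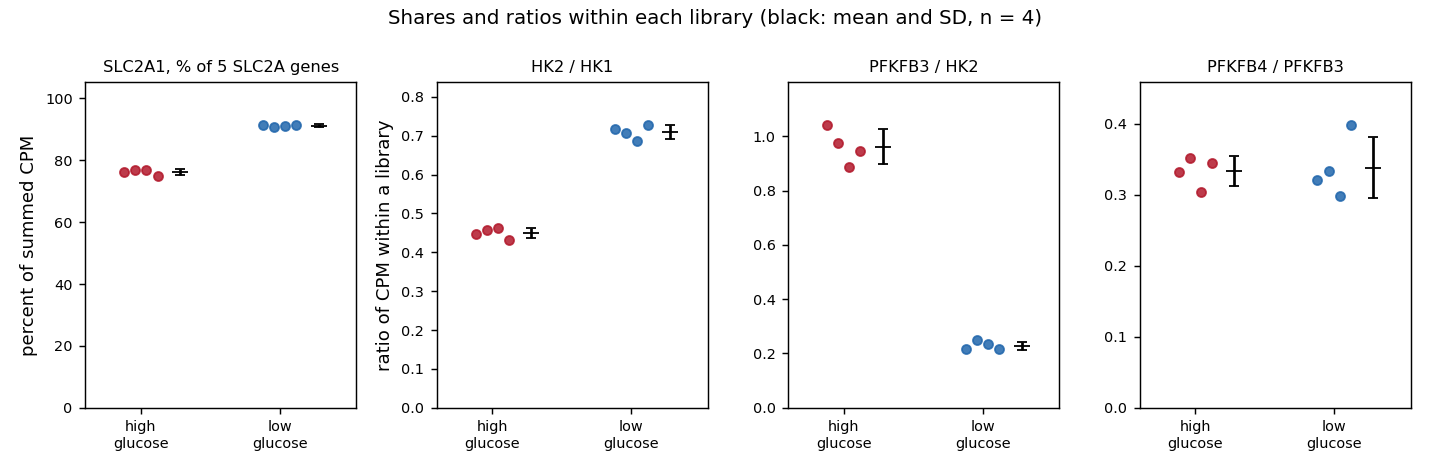
SLC2A1 as percent of the summed CPM of 5 SLC2A genes, and the ratios of HK2 to HK1, PFKFB3 to HK2 and PFKFB4 to PFKFB3 within each library (axes from 0), with high glucose in red, low glucose in blue and black marks for the mean with SD of a group. The PFKFB3 to HK2 ratio was 0.886 to 1.04 in high and 0.215 to 0.248 in low glucose, whereas the PFKFB4 to PFKFB3 ratio overlapped between the groups.

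Levels of different genes were compared per kilobase of the MANE Select transcript, 2145 bases for SLC2A8 to 8209 bases for TIGAR. SLC2A1 was the highest of the 10 genes in both groups, at 83.3 ± 7.23 CPM per kb in high and 194 ± 6.30 CPM per kb in low glucose (SD, n = 4 each), followed by HK1 at 58.5 ± 1.16 and 76.8 ± 2.41 CPM per kb. The order of the next pair differed between the groups. In high glucose PFKFB3, at 20.3 ± 1.39 CPM per kb, was above HK2, at 16.9 ± 0.592 CPM per kb, and in low glucose HK2, at 34.9 ± 1.30 CPM per kb, was above PFKFB3, at 10.01 ± 0.668 CPM per kb. The libraries of these neighbors did not overlap in either group. The order in high glucose rests on the transcript lengths, as HK2 averaged 94.8 CPM and PFKFB3 91.2 CPM there before division by length. Which transcripts of these genes were expressed was not tested. SLC2A10, SLC2A6 and PFKFB4 came next in both groups, at 8.68 to 13.8 CPM per kb in high and 4.32 to 9.43 CPM per kb in low glucose. The libraries of SLC2A6 and PFKFB4 overlapped in high glucose, and those of PFKFB3, SLC2A10 and SLC2A6 overlapped from neighbor to neighbor in low glucose. TIGAR was at 2.54 ± 0.393 CPM per kb, above SLC2A8 at 0.859 ± 0.121 CPM per kb, in high glucose, whereas TIGAR at 1.19 ± 0.469 and SLC2A8 at 1.64 ± 0.469 CPM per kb overlapped in low glucose. SLC2A3 was last in both groups.

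**Figure D4:**
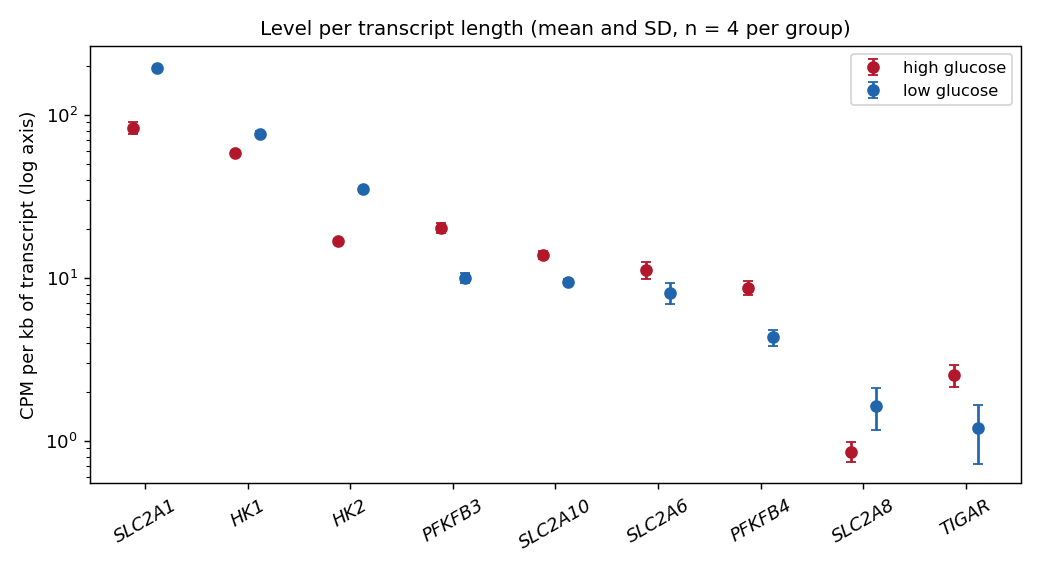
Level of 9 genes as CPM per kilobase of transcript (log axis), mean and SD of 4 libraries, high glucose in red and low glucose in blue, in the order of the low-glucose level. SLC2A1 at 83.3 and 194 CPM per kb was highest in both groups. PFKFB3 and HK2 changed places on this scale, which rests on the MANE Select lengths. SLC2A3, at 0 to 1 read per library, is not drawn.

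The rest of each family was taken from lists of related genes, whose counts are set against the 35.7% higher and 37.2% lower among all genes tested. Of 12 other glucose transporters, 8 were in the table and 7 were tested, of which 3 were higher, none lower and 4 did not pass. SLC2A12, the GLUT12 transporter, averaged 2.22 ± 0.187 CPM in high and 0.196 ± 0.0989 CPM in low glucose (log2 fold change 1.43, adjusted p = 1.83e-07), SLC2A13, a proton myo-inositol transporter, 12.7 ± 1.83 and 7.29 ± 0.301 CPM (0.72, adjusted p = 3.18e-05), and SLC2A9, a urate transporter, 0.672 ± 0.256 and 0.0281 ± 0.0562 CPM (0.69, adjusted p = 0.000882; SD, n = 4 each). In low glucose SLC2A12 had about 1 to 3 reads per library and SLC2A9 had 1 read in 1 library and none in the others. These are at or under the floor of 3 reads, so the sizes of these differences depend on the pseudocount. SLC2A12 and SLC2A9 were under 0.5 CPM in every low-glucose library and passed the filter only through high glucose. They could hardly have been called lower, so the count of higher against lower genes is not evidence on the transporters. The sodium-coupled transporter SLC5A1 was at 0 in all high-glucose libraries and averaged 0.0277 CPM in low glucose. The median log2 fold change of the 7, SLC2A12 and SLC2A9 included, was 0.15, against -0.00031 over all genes. With libraries rescaled to equal totals 5 of the 7, again with these genes, were higher and none lower. The same limit holds for this median and this count, which are not evidence on the transporters either.

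Among the genes of upper glycolysis beside the 10, 16 were listed, 10 were in the table and 9 were tested, of which 1 was higher and 5 lower, with a median log2 fold change of -0.59. PFKP, the platelet-type phosphofructokinase, averaged 82.4 ± 6.94 CPM in high and 200 ± 11.5 CPM in low glucose (log2 fold change -1.27, adjusted p = 2.80e-11). The liver-type phosphofructokinase PFKL (-0.72) and the glucose phosphate isomerase GPI (-0.65) fell as well. HKDC1, a hexokinase-like enzyme, averaged 0.572 ± 0.358 CPM in high and 5.79 ± 0.947 CPM in low glucose (-2.13, adjusted p = 3.15e-08). HKDC1 was under 1 CPM in every high-glucose library, a level at which the log2(CPM + 1) scale shrinks differences. HK2 was 31.0 ± 0.670% of the summed signal of HK1, HK2 and HKDC1 in high and 41.0 ± 0.670% in low glucose (SD, n = 4 each). PFKFB2, the remaining family member that was measured, averaged 23.5 ± 1.04 CPM in high and 22.0 ± 1.57 CPM in low glucose and did not pass (0.093, adjusted p = 0.271), but passed as higher with equal totals (0.33, adjusted p = 0.00102) and with quantile normalization (0.19, adjusted p = 0.0267). Summed over PFKFB2, PFKFB3 and PFKFB4, the signal was 145 ± 9.41 CPM in high and 82.0 ± 2.76 CPM in low glucose (SD, n = 4 each). FBP1, the phosphatase of gluconeogenesis, was at 0 in all 8 libraries.

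Of 18 listed genes of lower glycolysis and lactate handling, 14 were tested, 5 were higher and 5 lower, about the shares over all genes tested (35.7% and 37.2%), with a median log2 fold change of -0.057. PGK1, a kinase that makes ATP in glycolysis, averaged 465 ± 2.09 CPM in high and 273 ± 3.66 CPM in low glucose (log2 fold change 0.77, adjusted p = 4.98e-12), and lactate dehydrogenase LDHA rose likewise (0.73, adjusted p = 1.59e-11). The dehydrogenase GAPDH (-0.75) and the bisphosphoglycerate mutase BPGM (-1.27) fell. Of 13 listed genes that use glucose phosphate elsewhere, 12 were tested, 2 were higher and 8 lower, with a median of -0.32, and the 10 called stand beside 72.9% called over all genes tested. The transketolase TKT of the pentose phosphate pathway averaged 745 ± 67.4 CPM in high and 2462 ± 69.1 CPM in low glucose (-1.73, adjusted p = 2.65e-13). RPIA of the same pathway (-1.03), GFPT1 at the entry of the hexosamine pathway (-0.83) and PGM1 of glycogen metabolism (-0.68) fell as well. GFPT2, of the same family as GFPT1, was higher (0.56, adjusted p = 2.71e-06).

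A further list held genes known to regulate the 10 or to bind their products. Of 18 listed, 16 were tested, 2 were higher and 11 lower (35.7% and 37.2% over all genes tested), with a median log2 fold change of -0.50. MYC, a factor known to activate glycolytic genes, averaged 51.5 ± 2.56 CPM in high and 297 ± 10.4 CPM in low glucose (log2 fold change -2.51, adjusted p = 1.40e-15). The hypoxia-inducible factor EPAS1 (-1.03) and MLX, the partner of the glucose-sensing Mondo factors (-1.24), were lower too. The 2 that were higher, named after their values were seen, were HIF1A, the widely expressed hypoxia-inducible factor, at 377 ± 11.01 CPM in high and 317 ± 7.33 CPM in low glucose (0.25, adjusted p = 8.07e-06), and TXNIP, a glucose-induced inhibitor of glucose uptake, at 4.87 ± 0.446 and 3.39 ± 0.601 CPM (0.43, adjusted p = 0.0106; SD, n = 4 each). TXNIP did not pass with quantile normalization (adjusted p = 0.0798). Of 15 tested hypoxia targets outside the 10, 6 were higher and 8 lower, with a median of -0.097. CA9, among the higher, passed the filter only through high glucose. ANGPTL4 and CA9, among the higher, and BNIP3L, among the lower, did not pass under some other settings. With quantile normalization 4 hypoxia targets were higher and 7 lower. NDRG1 (-1.90), P4HA2 (-1.67) and BHLHE40 (-1.38) fell and EGLN1 rose (1.04). The lists were described and not tested, and with equal totals the counts of higher and lower genes were 8 and 4 for lower glycolysis, 4 and 5 for upper glycolysis, 4 and 6 for the glucose phosphate branches, 5 and 9 for the regulators and 8 and 6 for hypoxia targets.

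**Figure D5:**
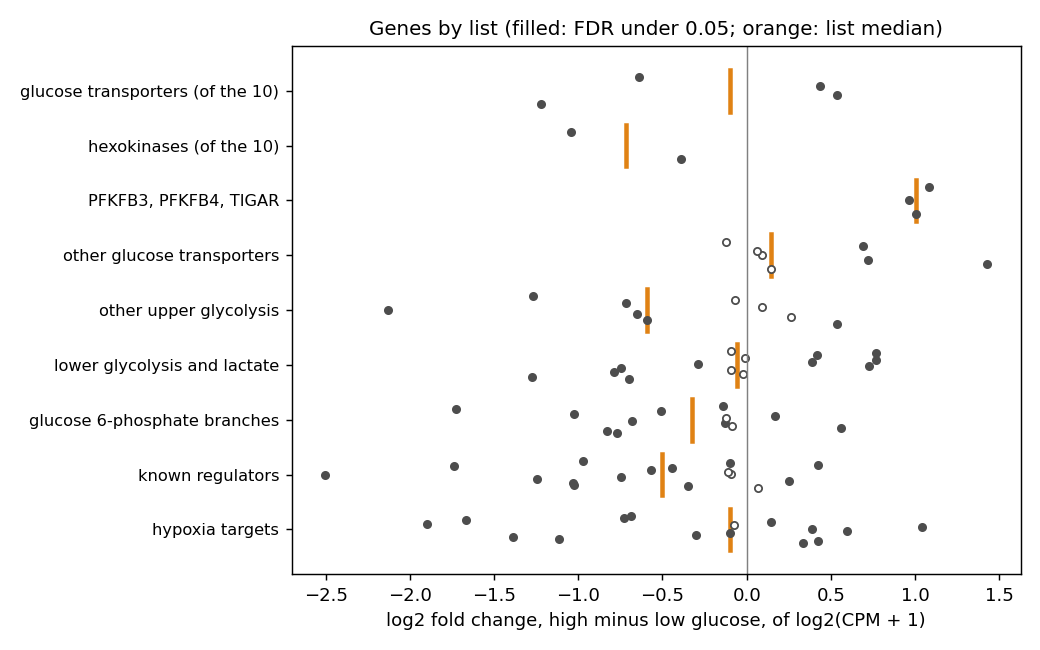
Log2 fold change of log2(CPM + 1), high minus low glucose, of the tested genes of 9 lists (n = 4 libraries per group), with filled points for genes at an FDR under 0.05, open points for the others and an orange bar at the list median. PFKFB3, PFKFB4 and TIGAR lay together at 0.96 to 1.08, whereas the regulators had a median of -0.50 with MYC at -2.51.

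The genes whose pattern was most like that of SLC2A1 included MYO1C and TGFB1I1, by Pearson correlation of log2(CPM + 1) over the 8 libraries (r = 0.9996 and 0.9994), among 11284 genes with at least 5 CPM in 1 group. MYO1C averaged 348 CPM in high and 625 CPM in low glucose, and TGFB1I1 51.9 and 242 CPM. The 8 libraries form 2 groups that stand apart, and 3072 of the genes had an r of at least 0.95, so the measure mostly reads the difference between the groups.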

How the data were processed

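RNA-Seq was done on 8 libraries of Hs578T cells, grouped by their treatment label. The deposited file holds a normalized signal for 21077 genes in 1 column per library. It was taken as CPM with TMM factors, since the submitters' processing notes list edgeR (and hg38) and the supplementary methods describe this scaling. The same methods describe alignment to hg19 with Tophat, whereas the notes on these libraries name hg38, so it is uncertain whether that alignment made this table. A counting program is not given in the sources used here. Reads were estimated per column, with its most frequent positive value taken as 1 read. Of values below 50 reads, 71.2% to 73.8% were whole within 0.005 read, so the underlying counts were estimated in fractions and a count model was not fitted. Pairs of libraries in a group differed by more than sampling noise (chi-square per gene of 1.60 to 5.72). In high glucose, replicates 1 and 2 (1.60) and replicates 3 and 4 (2.17) were closer than pairs across these, at 3.21 to 5.72. In low glucose the pairs were at 1.62 to 2.92. The cause was not tested. A total of 1552 rows were 0 in all libraries.

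Genes that reached 0.5 CPM in 2 or more libraries entered a limma fit (version 3.58.1, under R 4.3.3) of log2(CPM + 1) with a variance trend and no covariates, and were called at an FDR under 0.05. The members and lists were chosen with earlier results of these data known. All 10 members are named. Of each other list, up to 4 called genes with the smallest p are named, with family members that the filter removed, and the genes most correlated with SLC2A1. Some genes that this rule selects are not reported here. PFKFB2 and GFPT2 were named after their values were seen. Alternatives covered the pseudocount, the filter, 3 scalings, the variance prior, a replicate block and each library left out. Positions and upstream sequences are from RefSeq (GRCh38.p14), matched by symbol for all 10 and for 9 of 10 members, and transcript lengths from MANE Select transcripts in GENCODE, matched by gene identifier. Floors cover counting error only, and confidence intervals of fold changes cover the spread among libraries.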

Additional observations from a re-analysis of the deposited data

Results flagged for a closer look

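SLC2A8 in low glucose had 1 library far from the others: replicate 4 was at 2.005 CPM and replicates 1 to 3 were at 3.98 to 4.05 CPM, a gap of 0.969 of the range of the group, over the limit of Dixon's test for a group of 4 at the 95% level. It was the 1 such case among 18 groups of the 9 genes, and 20 groups of ratios were also screened. By chance this limit is passed in about 1 in 20 groups. The library had 17 reads of SLC2A8, and without it the log2 fold change was -0.82 in place of -0.64.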

How the results depend on the processing

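The 9 genes tested kept direction and call in all 171 of their alternative fits (19 settings each), and 9 genes were called in each setting. Over these fits the log2 fold change was -1.26 to -0.98 for SLC2A1, 0.38 to 0.67 for SLC2A6, -0.85 to -0.31 for SLC2A8, 0.49 to 0.77 for SLC2A10, -0.41 to -0.15 for HK1, -1.06 to -0.80 for HK2, 0.95 to 1.245 for PFKFB3, 0.82 to 1.19 for PFKFB4 and 0.82 to 1.30 for TIGAR. The largest adjusted p was 0.0240, for SLC2A8 with equal totals, and TIGAR reached 0.0106 with a robust variance prior. Of all genes, 10534 to 11728 passed, and 10963 to 11064 with 1 library left out. Libraries with the same replicate number correlated weakly in their deviations (r = -0.027 to 0.11), against -0.15 to 0.076 for different numbers. Of 4 numbers 2 matched best with their own, and the numbers were not taken as pairs. With the replicate block 11494 genes passed, 5602 higher and 5892 lower, and no call among the 9 genes changed. The block lowered the SE of each of the 9 genes, from 0.211 to 0.121 for TIGAR and from 0.0564 to 0.0555 for SLC2A10. The log2 difference of the summed SLC2A signal was -0.96 and moved to -0.72 with equal totals, which does not assume that most genes are unchanged (-1.0004 to -0.91 with 1 library left out). That of the PFKFB4 to PFKFB3 ratio was -0.019 and turned sign without high glucose replicate 3 (0.023) or low glucose replicate 4 (0.070), and was -0.075 to 0.070 with each library left out. Without the filter on low values SLC2A3 was fitted too and did not pass. Depth limits SLC2A3 and SLC2A8.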
